A study of Mus musculus with 4 samples.

Results

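The 8 genes described here are the CXC chemokines Cxcl1, Cxcl2, Cxcl3, Cxcl5, Cxcl14 and Cxcl16 together with platelet factor 4 (Pf4, the chemokine CXCL4) and pro-platelet basic protein (Ppbp). They were chosen by symbol among the 31053 genes of the count tables, and all 8 have a row. They were followed by single-cell RNA sequencing in bone marrow (BM) macrophages that had or had not engulfed dying tumor cells. BM cells of male C57BL/6J mice of 4 to 6 weeks of age were grown into macrophages with M-CSF. For the efferocytic group the macrophages were co-cultured for 16 to 18 h with apoptotic RM1 cells, a mouse prostate cancer line killed by ultraviolet light and labeled with the dye CFSE. F4/80+CFSE+ cells were then sorted, F4/80 being a surface protein of mouse macrophages. The non-efferocytic group was sorted F4/80+ cells. The paper calls them macrophages alone in its discussion and non-engulfing macrophages in a figure legend, so whether they had met tumor cells is not certain. If they were kept alone, contact with tumor cells and engulfment cannot be told apart. Each of 2 experiments gave 1 library per group. The methods describe several mice per group for the macrophage experiments in general. The number behind each library is not given in the sources used here, so p-values speak of these libraries and not of mice.

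Chemokines are small secreted proteins that draw leukocytes along a gradient. CXCL1, CXCL2, CXCL3, CXCL5 and the processed form of PPBP carry an ELR motif and attract neutrophils through the receptor CXCR2. In macrophages Cxcl1, Cxcl2 and Cxcl3 are known as fast NF-kB target genes whose mRNA, rich in AU elements, is quickly degraded. PF4 lacks the ELR motif, is stored in platelet granules and binds heparin-like sugars, and it is also made by some macrophages. CXCL16 is made as a membrane protein that can bind oxidized lipids and phosphatidylserine, the lipid exposed by dying cells, and is shed by ADAM10. CXCL14 is a conserved chemokine of epithelial and stromal cells.

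Of these genes, 6 lie side by side on the plus strand of chromosome 5 (GRCm38) within 147 kb, in the order Cxcl5 (chr5:90759360-90761624), Ppbp (chr5:90768518-90770063), Pf4 (chr5:90772435-90773383), Cxcl3 (chr5:90786103-90789600), Cxcl1 (chr5:90891241-90893115) and Cxcl2 (chr5:90903871-90905938). The only other protein-coding gene in that span is Cxcl15. Cxcl16 (chr11:70453983-70459984) and Cxcl14 (chr13:56288643-56296551) lie elsewhere, both on the minus strand. The promoters of Cxcl1, Cxcl2 and Cxcl3, whose RNA was lower in the efferocytic library of each experiment, and of their neighbor Pf4, whose RNA was higher, are shown from 250 bases before to 50 bases after the transcription start. They are RefSeq sequences on GRCm38.p6, written 5′ to 3′ along the plus strand, and 6 of the 8 genes had an entry (not Cxcl5 and Cxcl16). Capitals mark an NF-kB motif (GGG and TTCC with any 3 bases between them), ACGTG (the core bound by hypoxia-inducible factors) and TATAAA, each searched on both strands, with overlapping matches merged.
Cxcl1, chr5:90890995-90891294: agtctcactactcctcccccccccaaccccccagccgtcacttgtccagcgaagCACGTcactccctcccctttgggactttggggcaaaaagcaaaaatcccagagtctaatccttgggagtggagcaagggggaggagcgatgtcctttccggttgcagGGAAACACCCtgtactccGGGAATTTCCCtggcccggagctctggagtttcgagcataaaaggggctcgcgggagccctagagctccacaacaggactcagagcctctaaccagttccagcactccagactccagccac
Cxcl2, chr5:90903649-90903948: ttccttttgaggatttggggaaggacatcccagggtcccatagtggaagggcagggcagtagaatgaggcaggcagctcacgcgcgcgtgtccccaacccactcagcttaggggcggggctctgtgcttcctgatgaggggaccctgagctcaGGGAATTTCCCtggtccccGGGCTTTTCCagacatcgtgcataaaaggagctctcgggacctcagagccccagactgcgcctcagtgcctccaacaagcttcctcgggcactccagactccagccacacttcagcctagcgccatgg
Cxcl3, chr5:90785851-90786150: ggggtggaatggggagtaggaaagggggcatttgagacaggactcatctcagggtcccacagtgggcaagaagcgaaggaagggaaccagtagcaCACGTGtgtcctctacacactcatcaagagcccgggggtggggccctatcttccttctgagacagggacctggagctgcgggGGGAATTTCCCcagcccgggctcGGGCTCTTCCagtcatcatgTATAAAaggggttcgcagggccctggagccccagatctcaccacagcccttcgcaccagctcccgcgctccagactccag
Pf4, chr5:90772185-90772484: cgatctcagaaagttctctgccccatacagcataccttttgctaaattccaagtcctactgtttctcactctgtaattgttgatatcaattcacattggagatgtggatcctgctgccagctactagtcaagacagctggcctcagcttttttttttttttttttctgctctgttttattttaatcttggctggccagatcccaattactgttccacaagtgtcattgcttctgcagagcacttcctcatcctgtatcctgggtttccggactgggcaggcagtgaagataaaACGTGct
The NF-kB letters stood in 2 separate stretches in each of Cxcl1, Cxcl2 and Cxcl3, and the stretch GGGAATTTCCC was common to all 3 (first base at -71, -97 and -73 from the start). They were absent from this window in Pf4, Ppbp and Cxcl14, and 5.56% of 32851 promoters of this length hold them. ACGTG was found in Cxcl1, Cxcl3, Ppbp and Pf4, where it begins at +43, and in 19.6% of all promoters. TATAAA was found in Cxcl3 and Ppbp, against 13.6% of all promoters. Positions count from the RefSeq start, which for Cxcl1, Cxcl2 and Cxcl3 differs from the gene start given above. All of these motifs are matches of letters, not measured binding.

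In the 3′ untranslated regions, the letters TATTTAT, the core of an AU-rich element to which mRNA decay proteins of the ZFP36 family bind, occurred 6 times in Cxcl1, 7 times in Cxcl2, 2 times in Cxcl3 and 1 time in Cxcl5, counting overlaps. There was no copy in Cxcl14, Cxcl16, Pf4 or Ppbp. Of 21164 genes with a 3′ untranslated region (GENCODE), 27.4% had at least 1 copy and 10.4% at least 2. The 30 bases with most ATTTA repeats, in capitals, are shown for the Cxcl1 and Cxcl2 transcripts.
Cxcl1: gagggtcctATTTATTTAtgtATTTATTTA
Cxcl2: tATTTATTTAtctatgtATTTATTTATTTA

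A barcode was taken as a cell when it held 200 genes or more, 1000 UMIs or more (unique molecular identifiers, each counting 1 captured mRNA molecule) and no more than 10% mitochondrial UMIs. This gave 8280 cells for the non-efferocytic library of Experiment 1 and 6695 for the efferocytic one, and 13411 and 8408 for those of Experiment 2, with 101216659, 124997895, 138349389 and 155224183 UMIs. Efferocytic cells were deeper, with a median of 17171 and 17475.5 UMIs against 11146 and 9600. Clusters named macrophage-like by markers held 79.4% to 95.1% of the cells of a library, and all 9 macrophage markers were detected in every library. Markers of neutrophils (11 genes, none at 0) summed to 3068 CPM (UMIs per 1000000 UMIs of the cells) in the non-efferocytic library of Experiment 1 against 971 in the efferocytic one, and to 3366 against 730 CPM in Experiment 2. The cells of Experiment 2 shared 118 barcodes between its 2 libraries, 1.40% of the smaller one, against 15 in Experiment 1 and 14 to 23 between libraries of different experiments. These shared cells were shallow, with a median of 1911 and 1795 UMIs, and included all 63 T and NK cell-like cells of the efferocytic library and 63 of the 71 of the non-efferocytic one. Levels of Cxcl2, Cxcl3 and Cxcl5, of which they held a large share, are given with and without them.

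UMIs were summed per library and tested with edgeR, with the experiment as a block, over 13869 genes. With 4 libraries and a block, little is left to estimate a gene's own variance. The fit therefore draws it largely from all genes, and standard errors and p-values can be smaller than a gene's own spread between experiments would give. Of the 8 genes 7 passed the filter on low counts, though Cxcl3 and Cxcl5 were below its level in the efferocytic library of Experiment 1. Pf4 was called higher in efferocytic BM macrophages, and Cxcl1, Cxcl2, Cxcl3 and Cxcl16 were called lower. Cxcl14 and Cxcl5 were not called, and Ppbp was too low to be tested. Over all genes tested, 19.9% were called higher and 19.0% lower, so being called is by itself common in this comparison. The median log2 fold change of the 7 tested genes was -0.73, against -0.02 over all genes. Scaling to library totals in place of TMM gave 1847 genes higher and 3700 lower, against 2761 and 2636. Without the block, Pf4 was the 1 gene of the 8 that was called. With 1 library left out, which allows no block, Pf4 was called without either efferocytic library (adjusted p = 0.0261 and 0.0189) and not without the non-efferocytic library of Experiment 1 or 2 (0.0963 and 0.126). Of the genes called lower, Cxcl16 alone was then called in 1 of 4 fits, that without the efferocytic library of Experiment 1.

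**Figure D1:**
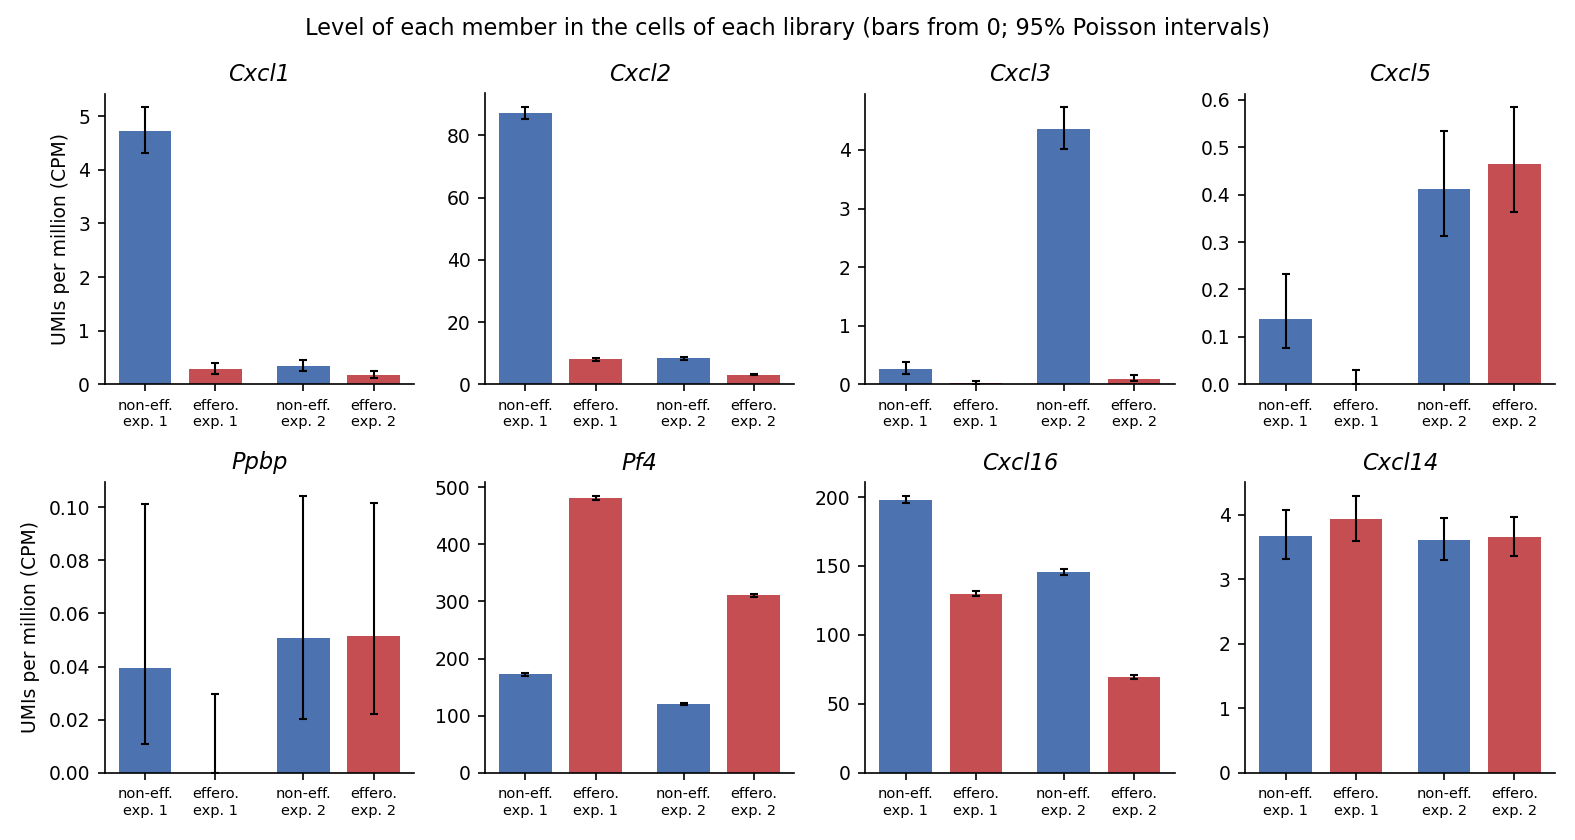
Level of each gene in CPM (bars from 0) in the cells of the 4 libraries, with 95% Poisson intervals that cover counting error only; blue bars are non-efferocytic and red bars efferocytic libraries, and each panel has its own axis. Pf4 is higher (481 and 311 against 172 and 120 CPM) and Cxcl16 lower (130 and 69.6 against 198 and 146 CPM) in the efferocytic library of both experiments, whereas Cxcl14 stays between 3.61 and 3.93 CPM.

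Among the ELR chemokines, Cxcl2 had the most UMIs. It was at 87.2 CPM in non-efferocytic and 8.01 CPM in efferocytic BM macrophages of Experiment 1, and at 8.38 and 3.10 CPM in Experiment 2. It was thus 10.9-fold lower in the efferocytic library of Experiment 1 (95% counting interval 10.2 to 11.6) and 2.71-fold lower in Experiment 2 (2.43 to 3.02). With all cells counted the groups did not overlap, but the efferocytic library of Experiment 1 was nearly level with the non-efferocytic library of Experiment 2. The groups overlapped in macrophage-like cells, where these libraries stood at 8.05 and 6.41 CPM. They also overlapped without the shared barcodes (8.02 and 6.37 CPM). The edgeR log2 fold change was -2.40 ± 0.37 (SE, adjusted p = 0.00218), and -2.98 ± 1.14 without the block (adjusted p = 0.124). DESeq2 gave -2.31 ± 0.86 (adjusted p = 0.0294). The edgeR value was -0.47 without the non-efferocytic library of Experiment 1, and Cxcl1 was then at -0.52.

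Cxcl2 was seen in 26.9% of the non-efferocytic cells of Experiment 1 (exact 95% interval 26.0 to 27.9) and in 6.03% of the efferocytic cells (5.48 to 6.63). In Experiment 2 the shares were 2.02% and 1.17%. Cells with at least 5000 UMIs were also thinned to that number, which left out 1099 of 8280, 544 of 6695, 3404 of 13411 and 505 of 8408 shallower cells. The shares in the cells kept were 19.2%, 2.88%, 1.48% and 0.481%, in the same order. The 1% of cells with most Cxcl2 held 23.9% of its UMIs in non-efferocytic cells of Experiment 1 and 50.1% in efferocytic ones, but 88.3% and 97.3% in Experiment 2. These shares depend on how many cells held the gene, and do not by themselves show a different spread. In Experiment 2 that 1% was 135 and 85 cells, while 271 and 98 cells held any Cxcl2. There, an unnamed cluster of shallow cells (cluster 16, 84 and 32 cells) held barcodes with up to 186 and 161 Cxcl2 UMIs, over 10% of all UMIs in those cells. The shared barcodes held 24.3% of the Cxcl2 UMIs of the non-efferocytic and 55.9% of those of the efferocytic library of Experiment 2. Without them the levels of Experiment 2 were 6.37 and 1.37 CPM, a 4.64-fold difference, and the log2 fold change over both experiments was -2.82 (adjusted p = 0.000376).

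Within single macrophage-like clusters with at least 50 cells in both libraries, Cxcl2 was lower in the efferocytic cells of 8 of 8 clusters in Experiment 1, with a median ratio of 0.176. The widest difference was in cluster 8, with 156 CPM in non-efferocytic and 7.24 CPM in efferocytic cells. In Experiment 2 it was lower in 5 of 7 clusters, with a median ratio of 0.642 and a range from 0.0769 to 1.19 over the 3 clusters with at least 4 UMIs in both libraries, and 266 of the 1160 non-efferocytic UMIs came from cluster 7 (71.6 against 5.51 CPM), 97 of them from 1 cell. Neutrophil-like cells, whose markers were also lower in the efferocytic libraries, held 1.34% of the Cxcl2 UMIs in non-efferocytic cells of Experiment 1 and 0.345% in those of Experiment 2. The unnamed cells of Experiment 2 held 27.2% of the non-efferocytic and 55.7% of the efferocytic Cxcl2 UMIs, and the barcode with most Cxcl2 in each library carried 79 and 73 UMIs of neutrophil markers against 1 and 0 of macrophage markers. In macrophage-like cells alone the difference was -2.97 ± 0.24 on the log2 scale (edgeR adjusted p = 0.000942).

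Cxcl1, which attracts neutrophils as Cxcl2 does, had 478 UMIs in non-efferocytic and 35 in efferocytic cells of Experiment 1, and 48 and 26 in Experiment 2. These are 4.72, 0.280, 0.347 and 0.168 CPM, so the groups did not overlap and the non-efferocytic library of Experiment 1 stood far above the other 3. The ratio was 16.9-fold (12.0 to 24.5) in Experiment 1 and 2.07-fold (1.26 to 3.48) in Experiment 2, where 13 of the 48 non-efferocytic UMIs came from 1 cell. The share of cells with Cxcl1 was lower in the efferocytic library of Experiment 1 (0.403% against 3.10%) but higher in that of Experiment 2 (0.274% against 0.179%), where the efferocytic level per cell was 0.864 of the non-efferocytic one. Thinned to 5000 UMIs, the shares of Experiment 2 were 0.114% in efferocytic and 0.120% in non-efferocytic cells, so no direction can be read from them. The edgeR log2 fold change was -2.84 ± 0.55 (adjusted p = 0.00567), while DESeq2 gave -2.45 ± 1.20 (adjusted p = 0.122) and the fit without the block an adjusted p of 0.112. The overlap of Cxcl1 and Cxcl2 in cells is given as a description, on few cells in 3 of the 4 libraries. Of the 257 non-efferocytic cells of Experiment 1 with Cxcl1, 63.0% also held Cxcl2, against 25.8% of the other cells, with a median depth of 13380 and 11087 UMIs. In efferocytic cells it was 44.4% of 27 against 5.88%. In Experiment 2 it was 50% of 24 against 1.93% in non-efferocytic cells, and 2 of 23 cells (8.70%) against 1.14% in efferocytic cells.

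Cxcl3, next to Pf4 on the chromosome, was rare in all libraries except through 1 cell. It had 27 and 2 UMIs in non-efferocytic and efferocytic cells of Experiment 1, and 604 and 15 in Experiment 2. A single cell of the non-efferocytic library of Experiment 2 held 562 of the 604 UMIs. It lay in cluster 7, which was named macrophage-like as a whole, and the cell was not named on its own markers. That cell had 38081 UMIs in all, among them 97 of Cxcl2, 13 of Cxcl1, 282 of Pf4, 5 of Ppbp and 75 of the interleukin gene Il1b, with 58 of the macrophage and 36 of the neutrophil markers. The 282 and 5 were the highest Pf4 and Ppbp counts of that library. Without it the Cxcl3 level of the library was 0.304 CPM in place of 4.37. The shared barcodes held 9 of the 15 efferocytic UMIs of Experiment 2, and without them the levels there were 4.31 and 0.0389 CPM. The ratio in Experiment 1 was 16.7 with a counting interval of 4.19 to 145, since it rests on 2 efferocytic UMIs. The edgeR log2 fold change was -5.24 ± 0.32 (adjusted p = 5.80e-05). Without the non-efferocytic library of Experiment 2 it was -2.07. When the cell with most UMIs of each gene was left out of each library, 24 and 1 UMIs remained in Experiment 1 and 32 and 6 in Experiment 2 (log2 fold change -3.11 ± 0.59), so that the gene was then tested through its non-efferocytic counts.

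Cxcl5 and Ppbp were close to the detection limit. Cxcl5, a chemokine of epithelial and stromal cells, had 14 and 0 UMIs in Experiment 1 and 57 and 72 in Experiment 2. A count of 0 in the efferocytic library of Experiment 1 allows up to 0.0240 CPM (3 counts). The non-efferocytic level was 5.76 times that floor. The lower counting limit of that ratio was 4.10, and 7 of the 14 UMIs came from 1 fibroblast-like cell, whereas the ratio in Experiment 2 was 0.888 (0.616 to 1.27). The groups overlapped, and the edgeR log2 fold change was -0.42 ± 0.65 (adjusted p = 0.636). Without the shared barcodes 40 and 52 UMIs remained in Experiment 2. Most Cxcl5 UMIs lay outside macrophage-like clusters. Fibroblast-like clusters of 21 to 37 cells held 13 of the 14 UMIs in Experiment 1 and 29 of 57 and 49 of 72 in Experiment 2, and macrophage-like cells held 1, 0, 5 and 1 UMIs in the clusters kept for comparison. Ppbp had 4, 0, 7 and 8 UMIs, and 5 of the 7 came from the cell with most Cxcl3.

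Pf4 was the 1 gene of the 8 that was called higher in efferocytic BM macrophages. Its level was 172 CPM in non-efferocytic and 481 CPM in efferocytic cells of Experiment 1, and 120 and 311 CPM in Experiment 2. The ratios were 2.79 (2.74 to 2.84) and 2.59 (2.54 to 2.63), and the lower efferocytic library was well above the higher non-efferocytic one. The means were 146 ± 36.9 and 396 ± 120 CPM (SD, n = 2). The edgeR log2 fold change was 1.53 ± 0.10 (adjusted p = 7.15e-05), and 1.55 ± 0.29 without the block (adjusted p = 0.0303). Per cell, the mean rose from 2.11 to 8.98 UMIs and from 1.24 to 5.74 UMIs, a 4.26-fold and a 4.63-fold difference that includes the greater depth of the efferocytic cells.

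More efferocytic cells held a Pf4 UMI, and more held 10 or more. Each of these shares rises with the mean level, and the second was not compared at equal depth. They therefore do not separate more cells with Pf4 from more Pf4 per cell. The share of cells with a Pf4 UMI was 56.5% in non-efferocytic and 83.9% in efferocytic cells of Experiment 1, and 43.3% and 79.2% in Experiment 2. At 5000 UMIs per cell the shares were 40.7%, 68.5%, 33.4% and 59.4%, higher in the efferocytic library of both experiments. Cells with 10 or more Pf4 UMIs made up 4.30% and 31.5% of cells in Experiment 1 and 1.81% and 19.3% in Experiment 2, at the depth sequenced. Pf4 was spread over many cells: the cell with most of it held 0.220% of its UMIs in the efferocytic library of Experiment 1 and 1.70% in the non-efferocytic library of Experiment 2.

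**Figure D2:**
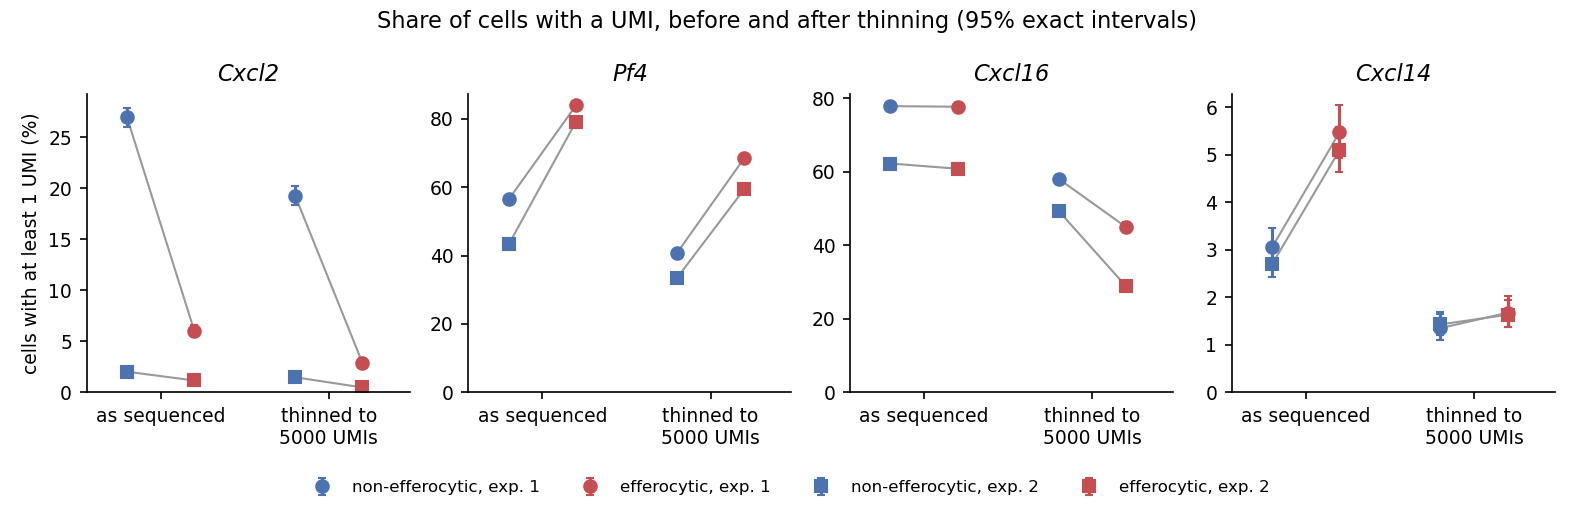
Share of cells with at least 1 UMI of Cxcl2, Pf4, Cxcl16 and Cxcl14 as sequenced (left pair of each panel) and after thinning to 5000 UMIs the cells that had at least that many (right pair, so fewer cells than on the left), with exact 95% intervals; circles are Experiment 1, squares Experiment 2, and gray lines join the libraries of an experiment. After thinning, the share of cells with Cxcl16 is lower in efferocytic cells (45.0% against 58.1%, and 28.9% against 49.3%), while that of Cxcl14 lies between 1.35% and 1.67% in all libraries.

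The groups filled the clusters unequally. In efferocytic cells of Experiment 1 it reached 761 CPM in cluster 9 (416 efferocytic cells and 1 non-efferocytic cell) and 618 CPM in cluster 7. Compared within macrophage-like clusters with at least 50 cells of both libraries, it was higher in the efferocytic cells of 8 of 8 clusters of Experiment 1, with a median ratio of 2.31 and a range from 1.02 to 2.67. In Experiment 2 it was higher in 6 of 7, with a median ratio of 1.22 and a range from 0.890 to 2.10. The ratios within these clusters were thus below those of the whole library in both experiments (2.79 and 2.59). In Experiment 1 the lowest was in cluster 0, which held 3757 of the 8280 non-efferocytic cells (166 CPM, against 170 CPM in its 135 efferocytic cells). The cluster with most non-efferocytic cells of Experiment 2 was cluster 0 (143 CPM, 4645 of 13411 cells), and that with most efferocytic cells was cluster 1 (363 CPM, 4267 of 8408 cells). In macrophage-like cells alone the log2 fold change was 1.45 ± 0.09 (edgeR adjusted p = 0.000580).

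**Figure D3:**
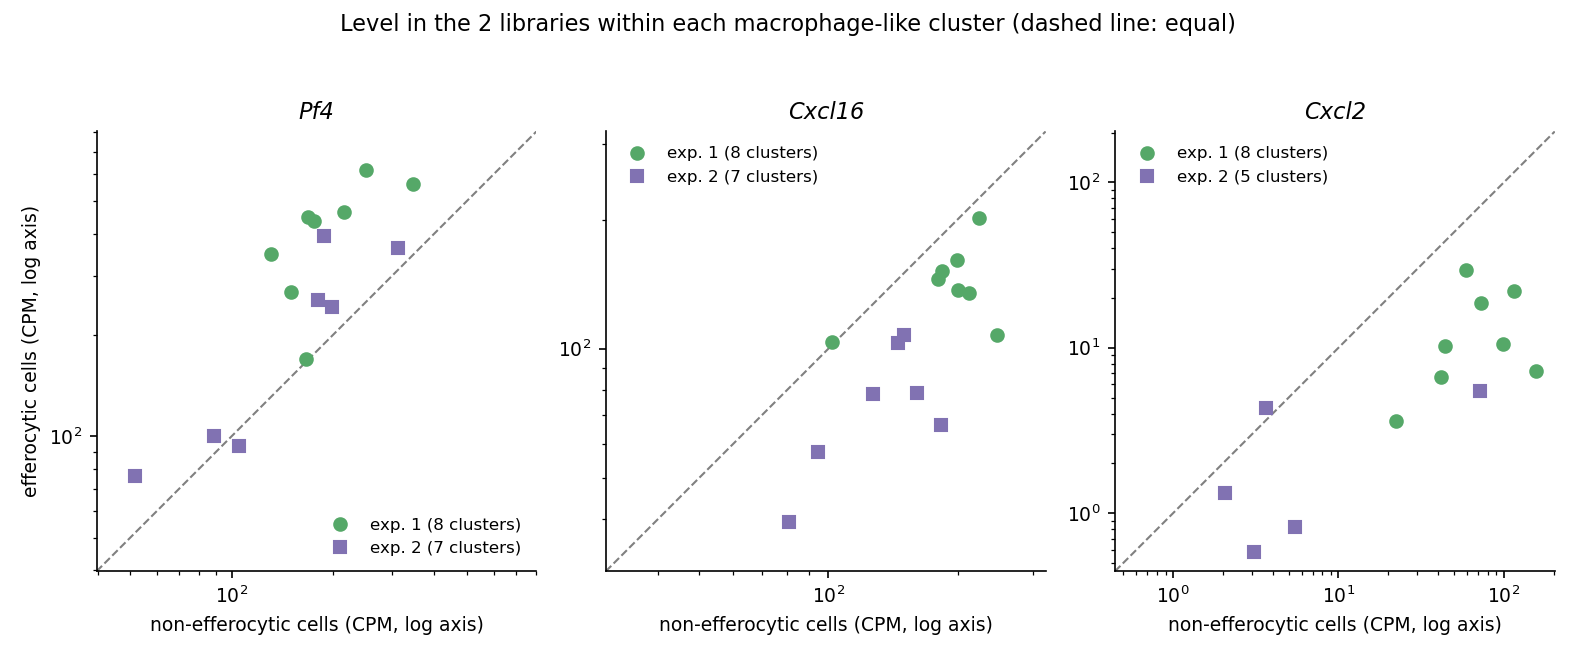
Level of Pf4, Cxcl16 and Cxcl2 in efferocytic cells (vertical, CPM, log axis) against non-efferocytic cells (horizontal, CPM, log axis) of the same macrophage-like cluster, for clusters with at least 50 cells in both libraries; the dashed line marks equal levels, and clusters with 0 UMIs in a library are not drawn. All 8 clusters of Experiment 1 and 6 of 7 of Experiment 2 lie above the line for Pf4, and 1 of 8 and 0 of 7 lie above it for Cxcl16.

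Markers of megakaryocytes and platelets, the best known source of Pf4, were low. Their 9 markers summed to between 2.24 and 4.48 CPM in every library and were lower in both efferocytic ones, and Tubb1 was at 0 in every library. Ppbp, which is abundant in platelets, was at 0.0395, 0, 0.0506 and 0.0515 CPM. In the shallow unnamed clusters Pf4 was at 182, 537, 107 and 203 CPM, against 176, 484, 123 and 314 CPM in macrophage-like ones (non-efferocytic then efferocytic, Experiment 1 then 2). In neutrophil-like cells it was at 36.3, 66.0, 23.2 and 51.1 CPM, where 28.0%, 29.2%, 22.5% and 18.2% of cells held a UMI at median depths of 15957, 19305, 15818.5 and 20669 UMIs. In macrophage-like cells the shares were 58.7%, 85.9%, 51.0% and 82.6% at median depths of 11532, 17772.5, 11135 and 17966 UMIs. The efferocytic values of neutrophil-like cells rest on 32 UMIs in 7 of 24 cells and 24 UMIs in 4 of 22 cells. In fibroblast-like cells Pf4 was at 49.7 and 75.8 CPM in Experiment 1 and at 40.6 and 31.0 CPM in Experiment 2. In 1 alternative, described below, 10% of the UMIs were taken away as free RNA. The log2 fold change of Pf4 was then 1.64 ± 0.08 (edgeR adjusted p = 0.0494). The part of free RNA in the difference was not tested further.

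**Figure D4:**
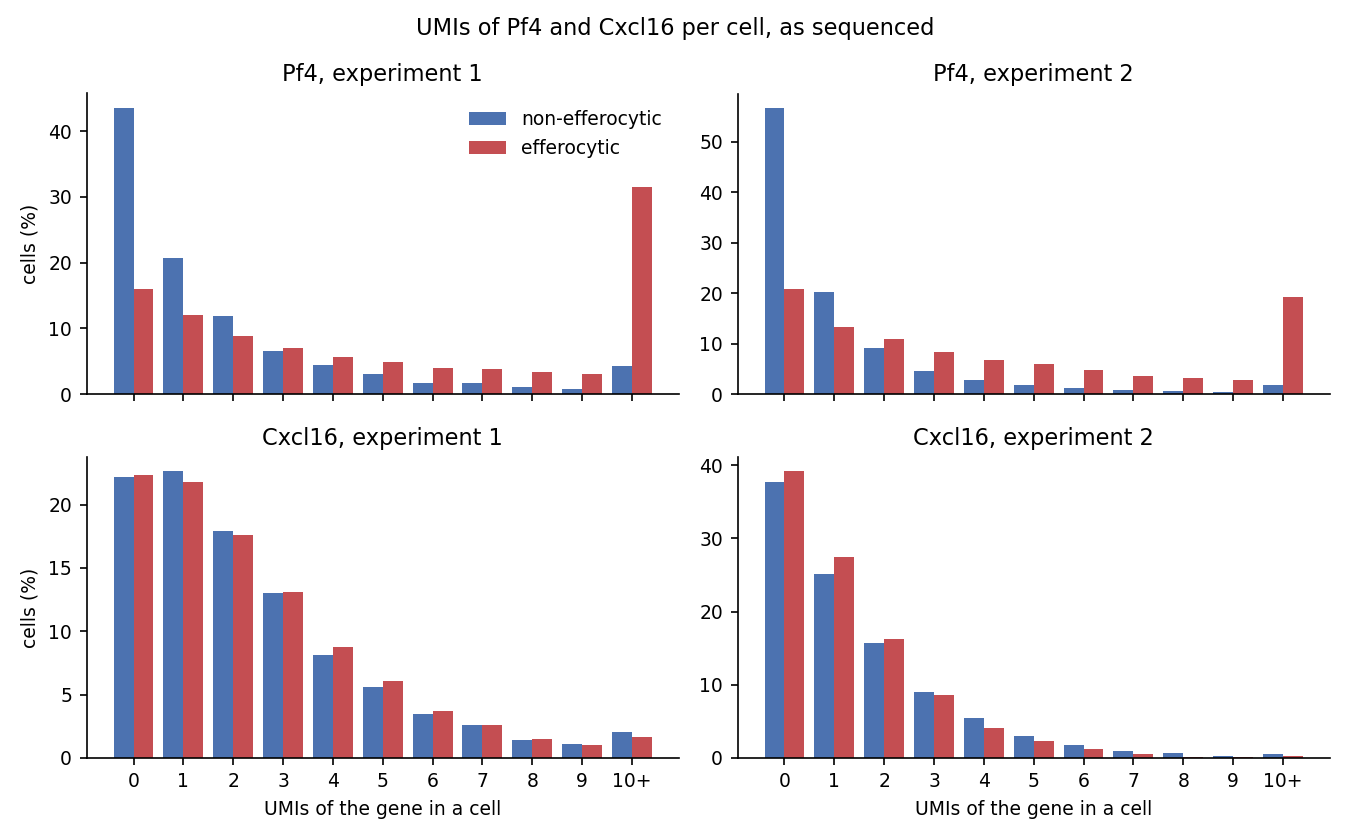
Share of cells (percent of all cells of the library) by the number of Pf4 UMIs (top) and Cxcl16 UMIs (bottom) in a cell, as sequenced, for non-efferocytic (blue) and efferocytic (red) cells of each experiment; the last bar gathers cells with 10 or more. Cells with 10 or more Pf4 UMIs make up 31.5% and 19.3% of efferocytic against 4.30% and 1.81% of non-efferocytic cells, while cells with 10 or more Cxcl16 UMIs make up 1.61% and 0.190% of efferocytic against 2.04% and 0.485% of non-efferocytic cells.

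Cxcl16 was lower in CPM in efferocytic BM macrophages. It was at 198 CPM in non-efferocytic and 130 CPM in efferocytic cells of Experiment 1, and at 146 and 69.6 CPM in Experiment 2, so the groups did not overlap. It was 1.52-fold (1.49 to 1.56) and 2.09-fold (2.04 to 2.14) lower, with means of 172 ± 37.2 and 99.8 ± 42.6 CPM (SD, n = 2). The edgeR log2 fold change was -0.73 ± 0.13 (adjusted p = 0.00352), and -0.66 ± 0.34 without the block (adjusted p = 0.212). With 1 library left out it ranged from -1.23 to -0.25. Within clusters Cxcl16 was lower in efferocytic cells of 7 of 8 macrophage-like clusters in Experiment 1 (median ratio 0.808) and of 7 of 7 in Experiment 2 (median ratio 0.607).

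The number of Cxcl16 molecules per cell differed far less. It was 2.42 and 2.43 UMIs per cell in Experiment 1, and 1.50 and 1.29 in Experiment 2. The share of cells with a UMI was 77.9% and 77.7%, and 62.2% and 60.8%. With libraries scaled to their number of cells, the log2 fold change was -0.11 ± 0.22 (edgeR adjusted p = 0.670). On that scale the median of all genes was 0.60, since the efferocytic cells held more UMIs. These values cover all cells, among them the shallow unnamed cells that made up 18.9% of the non-efferocytic library of Experiment 2. Over all macrophage-like clusters the share with a UMI was 81.1% and 80.7% in Experiment 1, and 73.6% in non-efferocytic against 63.8% in efferocytic cells of Experiment 2. With the clusters led by a monocyte gene left out, it was 72.4% against 63.6% in Experiment 2.

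Cxcl14 was level in all libraries, with 3.68, 3.93, 3.61 and 3.65 CPM. The ratio of non-efferocytic to efferocytic level was 0.936 (0.816 to 1.07) in Experiment 1 and 0.991 (0.877 to 1.12) in Experiment 2, and the edgeR log2 fold change was 0.16 ± 0.13 (adjusted p = 0.344). More efferocytic cells held a UMI as sequenced (5.47% against 3.06% and 5.09% against 2.70%), and after thinning to 5000 UMIs the shares were 1.67% against 1.35% and 1.63% against 1.43%. With libraries scaled to their number of cells Cxcl14 was called higher (log2 fold change 0.78, adjusted p = 0.0138), close to the median of 0.60 over all genes on that scale. It was highest in fibroblast-like cells (18.1 to 34.5 CPM, with a UMI in 28.6% to 57.1% of cells), which were under 0.4% of every library and held 2.24% to 8.00% of its UMIs.

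The levels of several of these genes rested on where the line between cells and other barcodes was drawn. Barcodes of 10 to 100 UMIs are commonly used as a measure of RNA from outside cells. In them Cxcl2 stood at 92.7 CPM in the non-efferocytic library of Experiment 1, near the 87.2 CPM of its cells, and at 28.5 CPM in the efferocytic one, 3.56 times the level of its cells. In Experiment 2 it stood at 828 and 811 CPM, 98.7 and 262 times the level in cells. Cxcl3 was at 379 and 405 CPM there, against 4.37 and 0.0966 CPM in cells, and Cxcl14 at 270 and 156 CPM. Of the Cxcl2 UMIs in these barcodes of Experiment 2, 44.1% and 49.1% lay in barcodes that also held Cxcl2 in the other library, as did 39.9% and 38.7% of the Pf4 UMIs, and the part of such sharing was not tested. Pf4 stood between 149 and 314 CPM in these barcodes. With 10% of the UMIs of each library taken away in the proportions of these barcodes, more Cxcl2, Cxcl3 and Cxcl14 than the cells held would be removed in Experiment 2, leaving 0 UMIs, while Pf4 stayed at 104 and 309 CPM. Cxcl1 went from 35 and 26 UMIs to 0 in both efferocytic libraries and from 478 to 163 in the non-efferocytic library of Experiment 1. Its log2 fold change was then -9.72 ± 0.86 and was no longer called (edgeR adjusted p = 0.0562). That fit called 317 genes in all, against 5397 in the main one. In Experiment 1 Cxcl14 went from 372 to 184 and from 491 to 204 UMIs, and efferocytic Cxcl2 from 1001 to 645 UMIs. Low levels of Cxcl1, Cxcl2, Cxcl3 and Cxcl14 are therefore uncertain, and the part of free RNA in them was not tested further.

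**Figure D5:**
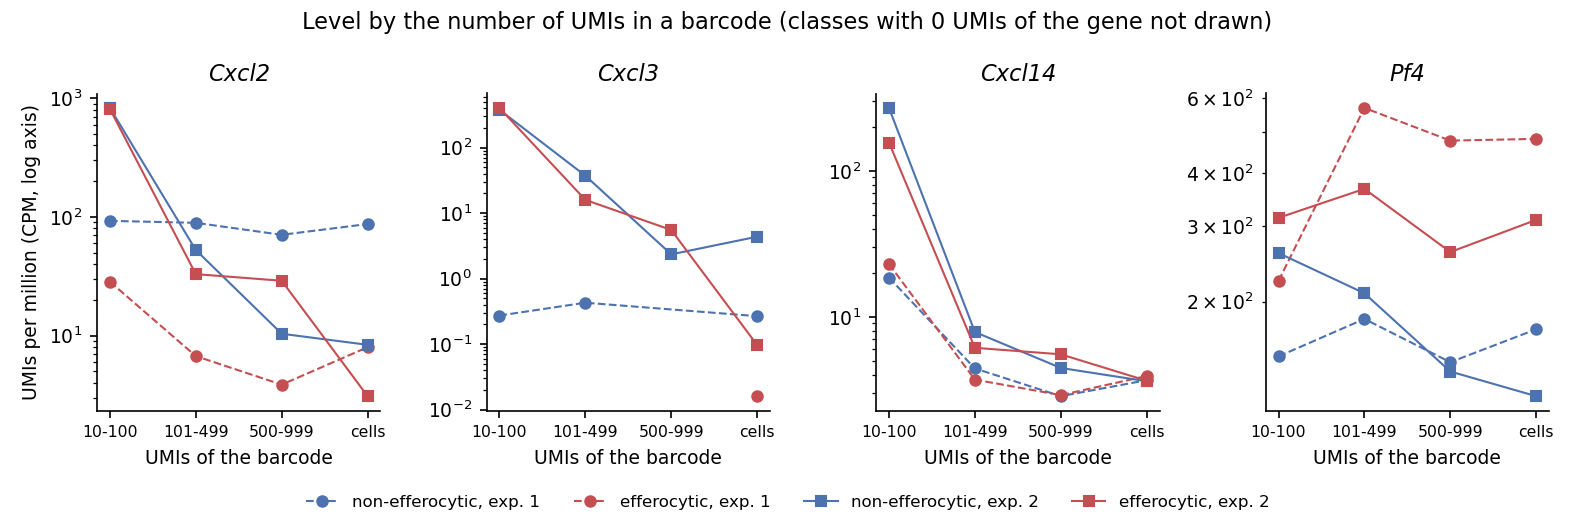
Level of Cxcl2, Cxcl3, Cxcl14 and Pf4 (CPM, log axis) in barcodes grouped by their number of UMIs, from 10 to 100 UMIs on the left to cells on the right; dashed lines with circles are Experiment 1, full lines with squares Experiment 2, blue non-efferocytic and red efferocytic, and classes without a UMI of the gene are not drawn. Cxcl2 falls from 828 and 811 CPM to 8.38 and 3.10 CPM from left to right in Experiment 2, while Pf4 goes from 260 and 314 CPM to 120 and 311 CPM.

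Genes whose level followed Cxcl2, Cxcl16 and Pf4 over 46 sums per cluster and library are given as a description, as these sums share libraries and depth. For Cxcl2 they were Ier3, Trib1 and Nfkbiz (Pearson r 0.745, 0.733 and 0.717 on log2(CPM + 1), among 9008 genes). For Cxcl16 they were Glipr1, Ninj1 and Gabarapl1 (0.923, 0.921 and 0.914), and for Pf4 Dhrs1, Sdc3 and Plek (0.890, 0.887 and 0.882).

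Of 6 other CXC ligands with a row, 3 passed the filter. Cxcl10 and Cxcl12 were called lower, beside 19.0% called lower over all genes tested. Cxcl9 passed only through the non-efferocytic libraries, with 24 and 7 UMIs in Experiment 1 and 98 and 4 in Experiment 2, and its call is not read. Cxcl10, an interferon-induced attractant of T cells, was at 14.6 and 0.688 CPM in Experiment 1 and at 11.5 and 1.37 CPM in Experiment 2 (log2 fold change -3.56 ± 0.26, edgeR adjusted p = 9.52e-05). It was seen in 2.16% and 1.70% of the non-efferocytic cells. It was among the leading genes of cluster 5 of Experiment 1 (883 non-efferocytic and 103 efferocytic cells) and cluster 8 of Experiment 2 (541 and 17). The part of these clusters in its difference was not tested. Cxcl12, which retains leukocytes in the marrow, was at 10.2 and 1.62 CPM and at 9.90 and 3.52 CPM (-1.93 ± 0.23, adjusted p = 0.000646). The 9 fibroblast markers, none at 0, were lower alongside (193 and 63.2 CPM, and 166 and 70.4 CPM), and Cxcl12 was among the leading genes of an unnamed shallow cluster of Experiment 2 (cluster 5, with 1573 non-efferocytic and 17 efferocytic cells). Their part in the difference was not tested. Cxcl13 and Cxcl15 had 0 UMIs in all libraries. Of the 8 receptors 3 were tested and 2 were called lower (19.0% over all genes). Cxcr4, the receptor of CXCL12, was at 82.4 and 68.6 CPM and at 89.9 and 53.8 CPM (-0.40 ± 0.13, adjusted p = 0.0383). Cxcr2, the receptor of the ELR chemokines, was the other one called lower (-2.02 ± 0.30, edgeR adjusted p = 0.00177). It was low in every library, at 0.721 and 0.160 CPM (73 and 20 UMIs) and at 0.441 and 0.103 CPM (61 and 16 UMIs). Cxcr2 is named outside the rule for list genes, as is Cxcr6, the receptor of CXCL16, at most 0.0506 CPM.

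Of the 5 genes of CXCL16 shedding and PF4 storage, all were tested and 3 (Adam17, Rhbdf1 and Srgn) were called lower, with a median log2 fold change of -0.28 (19.0% and -0.02 over all genes). Adam17, a shedding protease, was at 107 and 88.4 CPM and at 102 and 72.3 CPM (-0.28 ± 0.10, edgeR adjusted p = 0.0497). Adam10, the protease that sheds CXCL16, was at 58.9 and 56.7 CPM and at 58.5 and 61.5 CPM and was not called (0.12 ± 0.08, adjusted p = 0.247); it is named outside the rule for list genes. Srgn, the proteoglycan serglycin to which PF4 binds in granules, was at 170 and 124 CPM and at 194 and 113 CPM (-0.52 ± 0.11, adjusted p = 0.00892). In UMIs per cell the direction turned for both, with Adam17 at 1.26 times the non-efferocytic level in each experiment and Srgn at 1.11 and 1.04 times. The same held for Cxcr4, at 1.27 and 1.07 times, and for Cebpb and Nfkb1 of the list that follows, at 1.08 and 1.07 and at 1.03 and 1.44 times.

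Genes of the NF-kB pathway, inflammatory cytokines and mRNA decay formed the longest list. Of 17 genes 16 were tested, 12 were called lower and 1 higher, and the median log2 fold change was -0.60, beside 19.0% lower, 19.9% higher and a median of -0.02 over all genes. The 1 called higher was the interleukin gene Il1a, named after its value was seen, at 0.217 and 1.16 CPM in Experiment 1 and 0.571 and 1.66 CPM in Experiment 2. Il1b, also named after its value was seen, was at 2.29 and 0.176 CPM and at 3.56 and 0.296 CPM (-3.53 ± 0.19, edgeR adjusted p = 3.83e-05). Rela, Tnfaip3 and Tnf were not called (-0.17, -0.19 and -0.28, edgeR adjusted p = 0.102, 0.299 and 0.158). In Experiment 2 Tnfaip3 was at 15.4 and 16.0 CPM and Tnf at 4.52 and 4.21 CPM. Nfkbiz, an NF-kB cofactor, was at 32.9 and 5.93 CPM and at 9.31 and 2.51 CPM (-2.09 ± 0.13, edgeR adjusted p = 5.80e-05). Like Cxcl2, it was higher in the non-efferocytic library of Experiment 1 than in that of Experiment 2. Zfp36 and Zfp36l1, which speed the decay of mRNAs with AU-rich elements, were lower as well (-1.70 ± 0.09 and -1.23 ± 0.08). Zfp36 was at 162 and 47.5 CPM in Experiment 1 and at 91.6 and 25.3 CPM in Experiment 2. The early-response gene Egr1 was at 11.4 and 2.62 CPM and at 10.1 and 0.960 CPM (-2.61 ± 0.27). The other genes called lower with at least 10 CPM in a library were Nfkb1, Nfkb2, Relb and Rel (subunits of NF-kB), Nfkbia (its inhibitor), Cebpb and Zc3h12a, with log2 fold changes from -1.11 (Relb) to -0.33 (Nfkb1). In UMIs per cell Rel, Nfkbia and Zc3h12a were at 0.948, 0.918 and 0.966 times the non-efferocytic level in Experiment 1 and at 1.15, 1.04 and 1.20 times in Experiment 2, so their direction depends on the scale. Markers of monocytes (6 genes, none at 0) were lower alongside this list, at 71.4 and 26.8 CPM in Experiment 1 and 79.8 and 16.75 CPM in Experiment 2. The part of monocytes in the differences was not tested.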

How the data were processed

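For each of 4 10x Genomics libraries the authors deposited unfiltered UMI counts for every barcode, made by Cell Ranger from reads aligned to mm10. The file headers name Cell Ranger 3.0.0 (Experiment 1) and 3.1.0 (Experiment 2), and the submitters' processing notes name 3.0.0 and Seurat 3.1. The members, gene lists and tests were chosen with earlier results of these data known. Cells were clustered per experiment without the 8 genes (Leiden, resolution 0.5, 20 components of 5000 genes, leidenalg 0.10.2) and named by fixed marker lists, with a marker counted when 25% of cells held it. Macrophage-like clusters with a leading monocyte gene (F13a1 or Ccr2) were left out of the edgeR fits on macrophage-like cells alone. They were also left out of the Cxcl5 counts in the clusters kept for comparison. They stayed in the other levels and shares given for macrophage-like cells and in comparisons cluster by cluster. Doublets were kept in the main comparison. UMI counts summed per library were tested with edgeR 4.0.16 in R 4.3.3 (quasi-likelihood, TMM, filterByExpr, experiment as block, Benjamini-Hochberg, threshold 0.05). The standard error is the log2 fold change divided by the root of F. Experiment numbers come from the labels, and libraries of an experiment deviated together from the group means (r = 0.645 over 8623 genes). With 2 libraries a group, no exact permutation test can go below p = 0.33, so shares of cells got no test. Intervals (Poisson, Clopper-Pearson, 95%) and the floor of 3 counts cover counting error only. List genes were named when called with at least 10 CPM in a library, or at 0 in all; for members of at least 10 CPM, the 3 genes most alike. DESeq2 1.42.0 and other settings are given at the end; edgeR and DESeq2 were tested on simulated data.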

Additional observations from a re-analysis of the deposited data

Results flagged for a closer look

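Barcodes of 10 to 100 UMIs were not counted as cells, and served as the source of free RNA in 1 alternative. A gene was singled out where the lower counting limit of its level in them was over 10 times the upper limit in the cells of the same library. This held for Cxcl2 at 828 CPM in the non-efferocytic and 811 CPM in the efferocytic library of Experiment 2, for Cxcl3 at 379 and 405 CPM, and for Cxcl14 at 270 and 156 CPM in the same libraries. It also held for Ppbp at 5.65 CPM (8 UMIs) in the efferocytic library of Experiment 2. In Experiment 1 it held for Cxcl1 alone, at 28.9 CPM in the efferocytic library against 0.280 CPM in its cells. The source of this RNA was not tested. With 2 libraries a group no test for a library that stands apart within its group was made.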

How the results depend on the processing

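Of the 8 genes 7 were tested, and 1 was called higher and 4 lower, beside 19.9% and 19.0% over all genes tested. In the other 4 lists 1 gene was called higher and 20 lower. Cxcl9, whose call is not read, is among those 20. Pf4 was called higher under all 13 alternatives that used the 4 libraries (log2 fold change 1.43 to 2.15). Its highest adjusted p was 0.0494 (edgeR, free RNA removed). Cxcl2 was called lower in 12 of 13 (with the removal of free RNA among them), Cxcl1 and Cxcl16 in 10 of 13, and Cxcl3 in 11 of 12. Cxcl3 had at most 6 UMIs in an efferocytic library with at least 5000 UMIs per cell or in macrophage-like cells alone. The same held without shared barcodes and without the cell with most UMIs. In these settings it passed the filter only through the non-efferocytic libraries, and those calls are not read. Without the block that pairs libraries by experiment, 0 of the 8 genes and 12 list genes were called lower, with 1285 genes higher and 1073 lower over all. DESeq2 called 1392 genes lower over all. With UMIs per cell, 2 of the 8 genes were called higher (Pf4 and Cxcl14), 3 list genes higher and 9 lower, and 6921 genes higher and 586 lower over all. Without the filter on genes 2 list genes were higher. With 10% free RNA removed, 1 of the 8 genes was lower (Cxcl2, which then had 0 UMIs in both libraries of Experiment 2, so that this call rests on 1 library a group), 0 list genes higher and 2 lower, and 192 genes higher and 125 lower over all. With 1 library left out (no block, and a lone library taken to vary like the other group), 0 to 1 of the 8 genes were higher and 0 to 1 lower, 0 to 1 list genes higher and 0 to 17 lower, and 0 to 1658 genes higher and 0 to 1275 lower over all. The share of cells was higher in both efferocytic libraries for 2 genes (1 when thinned to 2000 UMIs) and lower for 4 (2 at no more than 5% mitochondrial UMIs). Among the 8 genes, directions turned for Cxcl5 and Cxcl14, which were not called: the log2 fold change was 0.18 for Cxcl5 with UMIs per cell, -8.05 to 0.86 for Cxcl5 with 1 library left out (0.80 without efferocytic replicate 1), and -0.024 for Cxcl14 with free RNA removed. The share difference turned to -0.0113 percentage points for Ppbp when thinned to 5000 UMIs and to 0.00114 for Cxcl5 at 2 UMIs or more. The alternatives without shared barcodes and without the cell with most UMIs were chosen after seeing the data. The causes were not tested.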
